A study of Mus musculus with 4 samples.

Results

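The addition of 7KC (7-ketocholesterol, an oxidized form of cholesterol) to the control diet was examined by comparing the liver RNA library CD+7KC with the liver RNA library CD. The comparison took every gene symbol with at least 1 FPKM in either library, which gave 10813 of the 24346 symbols listed. FPKM is the number of sequenced fragments of a gene scaled to its transcript length and to the depth of the library. All mice were male ob/ob mice, which lack the hormone leptin and become obese with fatty livers, and they were 6 weeks old when feeding began. The CD group received a control diet (CD), and the CD+7KC group received the same diet with 0.01% 7KC, for 4 weeks. Both diets held 1% cholesterol, so that the controls were cholesterol-fed as well and 7KC was the only stated difference. The study also holds the libraries WD and WD+7KC from ob/ob mice of the same age given a Western type diet, which is high in fat and also held 1% cholesterol, without and with 0.01% 7KC. Each group had 1 library, and pooling of livers is neither stated nor denied in the sources used here, so all differences are given as descriptions without a test, an SD or a p-value.

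Cholesterol is cleared from the liver mainly by conversion to bile acids and by secretion in lipoproteins and bile. Oxysterols, to which 7KC belongs, can act as ligands of nuclear receptors, can restrain the SREBP pathway of sterol synthesis, and are further metabolized by cytochrome P450 enzymes and sulfotransferases. Hepatocytes make up most of the RNA of a liver sample, while Kupffer cells (the resident macrophages), sinusoidal endothelial cells and stellate cells contribute smaller shares.

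The 2 libraries had closely similar profiles. Of the 10813 genes, 7299 (67.5%) differed by less than 0.25 on the log2 scale, and the median log2 fold change of CD+7KC against CD was -0.0048, with quartiles of -0.16 and 0.16. Fold changes were computed as log2 of the ratio of FPKM + 0.1, so that changes of low genes are understated. Below, paired levels are FPKM without and then with 7KC, on the control diet unless the Western diet or the WD pair (WD and WD+7KC) is named, and single values in parentheses are log2 fold changes. At a log2 fold change above 1, 170 genes (1.57%) rose, and at a log2 fold change below -1, 117 genes (1.08%) fell. In all, 5215 genes (48.2%) were higher and 5598 (51.8%) were lower in CD+7KC, and these are the shares against which the gene groups are read. Among the 10396 protein-coding genes 123 (1.18%) rose and 94 (0.904%) fell.

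**Figure D1:**
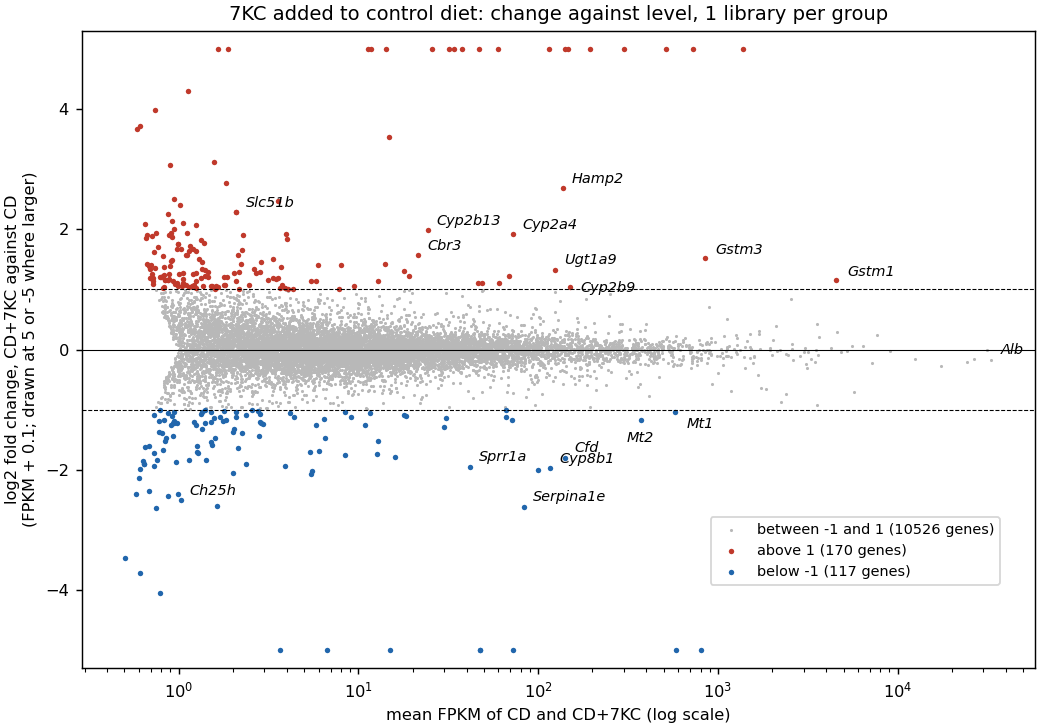
Log2 fold change of CD+7KC against CD (vertical axis) against the mean FPKM of both libraries (horizontal axis, log scale) for 10813 genes, 1 library per group. Red points are the 170 genes above 1, blue points the 117 genes below -1 and grey points the others; most coloured points lie at low levels, and values larger than 5 either way are drawn at the edge.

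The sum of FPKM was 715605 in CD and 696062 in CD+7KC. From the steps between low values both libraries were estimated to hold about 11000000 fragments, at which 1 FPKM in a transcript with 1 kilobase of usable length is about 11 fragments, against 9430000 for WD and 12100000 for WD+7KC. Counting error alone was therefore large for low genes. A 95% exact interval of the ratio, which covers counting error and not differences between mice, could be given for 6690 genes, and it lay above 0 on the log2 scale for 942 and below 0 for 1148. Of the genes above 1, 89 of 101 with an interval had it above 0, and of those below -1, 58 of 71 had it below 0. These genes were chosen by the same values that give the intervals, so the shares are largely set by the choice. With the genes divided into 4 equal bins by mean level, the lowest bin (0.503 to 2.94 FPKM) held 116 of the rises and 76 of the falls, so that 7.10% of it passed the threshold, while the other bins had 1.11%, 0.851% and 1.55%. At the edge of the expression limit, 21 of the 189 genes whose larger value was 1 to 1.1 FPKM passed the threshold, as did 22 of the 180 genes just outside at 0.9 to 1 FPKM.

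The hepatocyte identity of both samples was clear from its markers. Alb, which encodes albumin, was 35084 FPKM in CD and 31205 in CD+7KC and had the highest mean of all genes. All 9 listed hepatocyte markers were lower in CD+7KC by a small amount, with a median log2 fold change of -0.23 and a range from -0.71 for Apoa1 (the main protein of high density lipoprotein) to -0.09 for Cps1 (the entry enzyme of the urea cycle). None of the 9 passed the threshold.

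Among well expressed genes, the largest rise with 7KC was that of Hamp2, a close relative of the hepcidin gene. Hamp2 was 36.8 FPKM in CD and 237 in CD+7KC, a log2 fold change of 2.69, while it was 159 in WD and 131 in WD+7KC. CD was thus the low library among the 4. Hamp, the hepcidin gene itself, which encodes the hormone that limits iron uptake, was 1464 FPKM in CD and 905 in CD+7KC (-0.69) and did not share the direction of Hamp2. Hamp exceeded Hamp2 in all 4 libraries. The 2 genes are close copies, so reads may have been assigned between them, which was not tested.

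Among the P450 genes of drug and steroid metabolism, 3 rose past the threshold. Cyp2b13, a steroid-hydroxylating P450 with higher expression in female mice, was 9.72 FPKM in CD and 38.8 in CD+7KC (1.98). Cyp2a4, another P450 that is higher in females, was 30.2 and 115 (1.92). Cyp2b9, of the same female pattern, was 97.4 and 202 (1.05). All 3 were higher in CD+7KC by more than the counting error, with 95% intervals of 1.75 to 2.24 for Cyp2b13, 1.78 to 2.07 for Cyp2a4 and 0.97 to 1.13 for Cyp2b9. Cyp2b10, the classical target of the xenobiotic receptor CAR, was 32.7 and 64.4 FPKM (0.98), just under the threshold. Cyp2a5, a near-identical copy of Cyp2a4, was 681 and 1110 (0.71), and since Cyp2a4 and Cyp2a5, and Cyp2b9, Cyp2b10 and Cyp2b13, share long stretches of sequence, the split of reads among them is uncertain.

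Over the P450 genes of families 1 to 3, 16 of 29 were higher and 13 lower, 3 were above 1 and 0 below -1, and the median was 0.07. The list thus divided in direction. Cyp1a2, a xenobiotic P450 of the cells around the central vein, was 74.2 in CD and 119 in CD+7KC (0.68), whereas Cyp2e1, the ethanol-oxidizing P450 of the same cells, was 3444 and 2778 (-0.31) and Cyp2c54 was 55.2 and 31.6 (-0.80). Cyp3a11, the most abundant member, was 3735 and 3491 (-0.10). The 12 genes of the pericentral list gave 10 higher and 2 lower with a median of 0.24, none of them past the threshold, and Glul, the glutamine synthetase that marks the innermost pericentral cells, was 262 and 281 (0.10).

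The lists of male-biased and female-biased liver genes had medians on opposite sides of 0. Of the 17 male-biased liver genes, 16 were lower in CD+7KC and 3 fell past the threshold, with a median of -0.67. The deepest fall was that of Serpina1e, an alpha-1 antitrypsin gene of the serpin family, from 143 FPKM in CD to 23.2 in CD+7KC (-2.62, counting interval -2.81 to -2.44). Slco1a1, an organic anion transporter, fell from 3.30 to 0.721 (-2.05) and Selenbp2, a selenium binding protein, fell from 9.63 to 3.40 (-1.47). Mup3, a major urinary protein, was 2916 and 1596 (-0.87), but Mup20 was 2754 and 2454 (-0.17) and Cyp4a12a, a fatty acid hydroxylase, was 119 and 109 (-0.12), so that the male-biased genes did not shift by a common amount. Of the 13 female-biased genes 8 were higher and 5 lower, 4 rose past the threshold, and the median was 0.47. The 4 were Cyp2b13, Cyp2a4, Cyp2b9 and A1bg, a plasma glycoprotein gene that was 0.112 FPKM in CD and 1.68 in CD+7KC (3.07). A1bg reached 1 FPKM only in CD+7KC. The other female-biased genes that were higher were Cyp17a1 (0.84), Hao2 (0.81), Atp6v0d2 (0.47) and Rtn4 (0.10). The 5 lower ones included Fmo2, a flavin monooxygenase (3.91 and 3.64 FPKM), and Cyp3a16 (1.01 and 0.653 FPKM). In the WD pair the male-biased genes were lower as well (16 of 17, median -0.55), but only 5 of the 13 female-biased genes were higher there (median -0.15). Growth hormone secretion sets much of this sex pattern in the liver. In the list of that axis, with 3 of 11 genes higher, 8 lower and a median of -0.15, Socs2, an inhibitor of the growth hormone receptor, fell from 2.38 to 1.03 (-1.13), while Igf1, the main growth factor it induces, was 102 and 104 (0.03) and Ghr, its receptor, was 229 and 212 (-0.11).

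Glutathione conjugation genes were higher across most of the family. Gstm1, one of the most abundant enzymes of mouse liver that join glutathione to reactive compounds, was 2798 FPKM in CD and 6277 in CD+7KC (1.17). Gstm3 was 436 and 1256 (1.53), and Gsta1 was 41.2 and 96.4 (1.22). Gsta2 was 83.9 and 164 (0.96) and Gstm2 was 173 and 328 (0.92). CD was the lowest of the 4 libraries for Gstm1, Gstm2, Gstm3 and Gsta1, and the WD pair held intermediate levels. Over the 18 glutathione S-transferase genes, a family grouped by symbol after the values were seen, 16 were higher and 2 lower, 3 were above 1 and the median was 0.37. The summed FPKM of all 20 listed symbols of the family was 6392 in CD and 11531 in CD+7KC. On the Western diet 4 of the 18 were higher, 14 were lower and the median was -0.13, a direction that turned to medians of 0.08 and 0.04 when those 2 libraries were rescaled to equal sums, with and without the 20 most abundant genes. Members of the Gstm and Gsta clusters resemble each other in sequence, so the levels of single members carry that uncertainty.

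Many glutathione S-transferases are targets of the oxidant sensor NRF2, and the wider list of NRF2 targets with metallothioneins divided. In this list, 9 of 17 genes were higher and 8 lower, with 4 above 1, 3 below -1 and a median of 0.05. Cbr3, a carbonyl reductase, was 10.8 FPKM in CD and 32.1 in CD+7KC (1.57), and Nqo1, a quinone reductase often used as a marker of NRF2 activity, was 12.1 and 23.8 (0.97, counting interval 0.71 to 1.24). In contrast, Gclc, the catalytic subunit of glutathione synthesis, was 225 and 150 (-0.58), and Gclm, Srxn1 and Txnrd1, which encode a regulatory subunit, sulfiredoxin and thioredoxin reductase, had log2 fold changes of -0.16, -0.16 and -0.13. Hmox1, the haem-degrading enzyme induced by oxidative stress, fell from 42.4 to 19.3 (-1.13). Both metallothionein genes, whose products bind zinc and copper, fell as well. Mt1 was 781 in CD and 380 in CD+7KC (-1.04), and Mt2 was 516 and 228 (-1.17), while on the Western diet Mt1 was 221 and 279 and Mt2 was 104 and 145. For Mt1, Mt2, Hmox1 and Gclc, CD was the highest of the 4 libraries.

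Other conjugating enzymes showed no common shift. Ugt1a9, a glucuronosyltransferase, was 70.7 FPKM in CD and 178 in CD+7KC (1.33), and it shares its last exons with the other genes of the Ugt1a cluster, so reads of the cluster may be split unevenly. Of 14 UDP-glucuronosyltransferase genes 8 were higher and 6 lower (median 0.02). Of 9 sulfotransferase genes 4 were higher and 5 lower (median -0.0047), and the 1 above 1 was Sult2a2, an enzyme that sulfates steroids and bile acids, at 1.02 and 6.10 FPKM (2.47) with 0 listed in both WD libraries. The Sult2a genes are close copies. Both families were grouped after the values were seen.

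**Figure D2:**
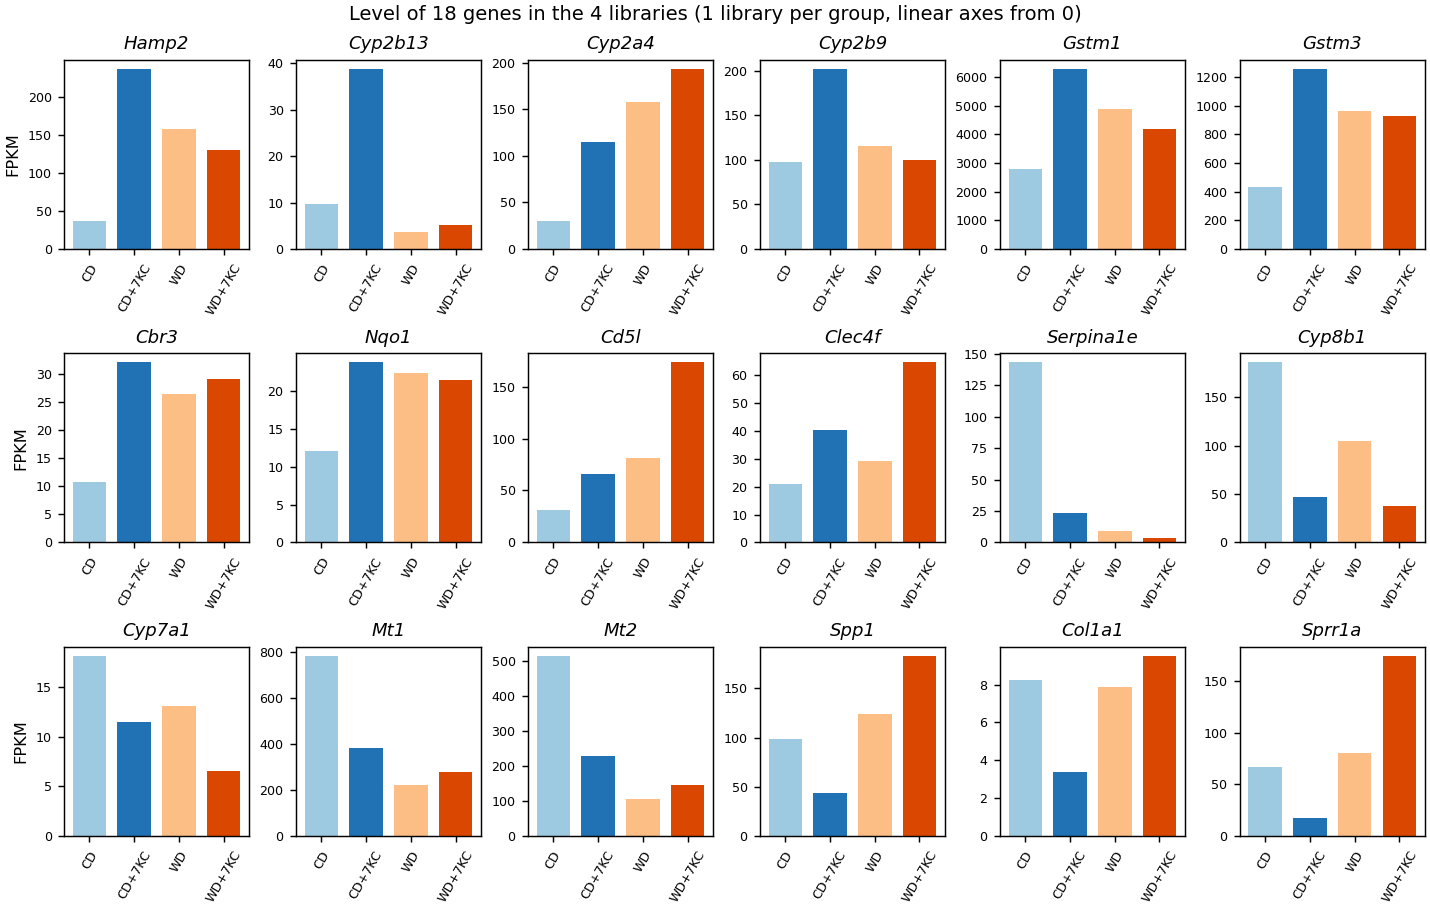
FPKM (vertical axes, linear from 0) of 18 genes in the libraries CD, CD+7KC, WD and WD+7KC, 1 bar for each library and no error bars since each group had 1 library. Gstm1, Gstm3 and Hamp2 were lowest in CD, Mt1 and Mt2 were highest in CD, and Cyp8b1 was lower with 7KC on both diets.

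In bile acid synthesis, the enzymes moved unequally. Cyp8b1, the hydroxylase that directs synthesis toward cholic acid, fell from 186 FPKM in CD to 47.3 in CD+7KC (-1.97, counting interval -2.08 to -1.87). Cyp7a1, the rate-limiting enzyme of the classical pathway, was 18.1 and 11.5 (-0.66, counting interval -0.83 to -0.50). Cyp27a1, the mitochondrial sterol hydroxylase of the alternative pathway, was 173 and 186 (0.11), and Cyp7b1, which hydroxylates oxysterols in that pathway, was 4.44 and 4.70 (0.08). Cyp8b1 fell on both diets, since it was 104 in WD and 38 in WD+7KC (-1.46), and Cyp7a1 was 13.1 and 6.53 there (-0.99). Nr0b2, the repressor SHP that bile acids induce, was 24.9 and 30.2 (0.28), and Nr1h4, the bile acid receptor FXR, was 72.6 and 52.4 (-0.47).

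Bile acid transporters were at similar levels for the main export and uptake proteins. Abcb11, the bile salt export pump, was 94.7 in CD and 109 in CD+7KC (0.20), and Slc10a1, the sodium-dependent uptake carrier, was 238 and 198 (-0.26). Slc51b, a subunit of the basolateral exporter of bile acids and steroids, rose from 0.647 to 3.55 (2.29), with a wide counting interval of 0.74 to 4.32 and values of 3.01 and 2.05 in the WD pair. Abcc4, another basolateral exporter, was 3.66 and 6.22 (0.75). As a whole the list of bile acid synthesis and transport had 8 of 17 genes higher, 9 lower, 0 above 1 and 2 below -1 (Cyp8b1 and Slco1a1), and a median of -0.03.

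Sterol-regulated genes differed little. Of 25 genes of cholesterol synthesis and other SREBP2 targets, 8 were higher and 17 lower, none passed the threshold, and the median was -0.07. The extremes were Mvd, a decarboxylase of the mevalonate pathway, at 2.04 FPKM in CD and 3.20 in CD+7KC (0.62), and Cyp51, the lanosterol demethylase, at 7.67 and 5.95 (-0.36).

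Of 12 LXR targets and efflux genes, 7 were higher and 5 lower, none passed the threshold, and the median was 0.02. Abcg5 and Abcg8, the paired transporters that export sterols into bile, were 84.2 and 86.2 FPKM (0.03) and 53.5 and 53.7 FPKM (0.01). Abca1, which loads cholesterol onto apolipoprotein A-I, was 20 and 16.8 (-0.25), and Srebf1, which encodes SREBP1, was 77.9 and 81.4 (0.06). Oxysterol-metabolizing genes (6 of 9 higher, 3 lower, median 0.08) included 1 fall, that of Ch25h, which makes an oxysterol from cholesterol and is expressed mostly in macrophages and other non-parenchymal cells. Ch25h was 1.82 in CD and 0.237 in CD+7KC (-2.51), while it was listed at 0 in WD and was 0.358 in WD+7KC. Hsd11b1, which can reduce the keto group of 7KC, was 409 and 429 (0.07), and Cyp39a1, an oxysterol hydroxylase, was 3.56 and 5.08 (0.50).

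Lipogenic genes were higher more often than lower, but by small amounts. Of 24 genes of fatty acid and triglyceride synthesis, 18 were higher and 6 lower, none passed the threshold, and the median was 0.07. Fasn, the fatty acid synthase, was 82.2 in CD and 119 in CD+7KC (0.54), and Thrsp, a lipogenic regulator, was 928 and 1323 (0.51). Acaca, which makes malonyl-CoA, was 35.7 and 36.9 (0.05), and Scd1, the main desaturase, was 13067 and 11776 (-0.15). Fatty acid oxidation and PPARalpha targets gave 16 of 28 genes higher and 12 lower with a median of 0.0038. Cpt1a, the gate of mitochondrial oxidation, was 108 and 92.5 (-0.22), and Cyp4a14, a sensitive PPARalpha target, was 342 and 458 (0.42).

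Lipid droplet genes were evenly divided, with 10 of 20 higher, 10 lower and a median of -0.01. The droplet coat gene Plin2 was 781 and 629 FPKM (-0.31), Plin5 was 35.7 and 51.0 (0.51), and Hilpda, an inhibitor of lipolysis that responds to hypoxia and fatty acids, fell from 9.27 to 2.79 (-1.69). Apolipoprotein and lipoprotein genes had 6 of 18 higher and 12 lower with a median of -0.15, where Apoa4, an apolipoprotein of fatty liver, was 3014 and 1797 (-0.75) and Apob was 480 and 434 (-0.15). Glucose metabolism genes had 7 of 16 higher and 9 lower with a median of -0.08. Its members Pck1 and G6pc, the key enzymes of glucose production, were 849 and 768 (-0.15) and 182 and 183 (0.01), and Igfbp1, an insulin-repressed binding protein, fell from 90.9 to 41.6 (-1.13). Urea cycle and amino acid enzymes had 14 of 19 higher, 5 lower and a median of 0.11, with Ass1 at 141 and 194 (0.46).

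**Figure D3:**
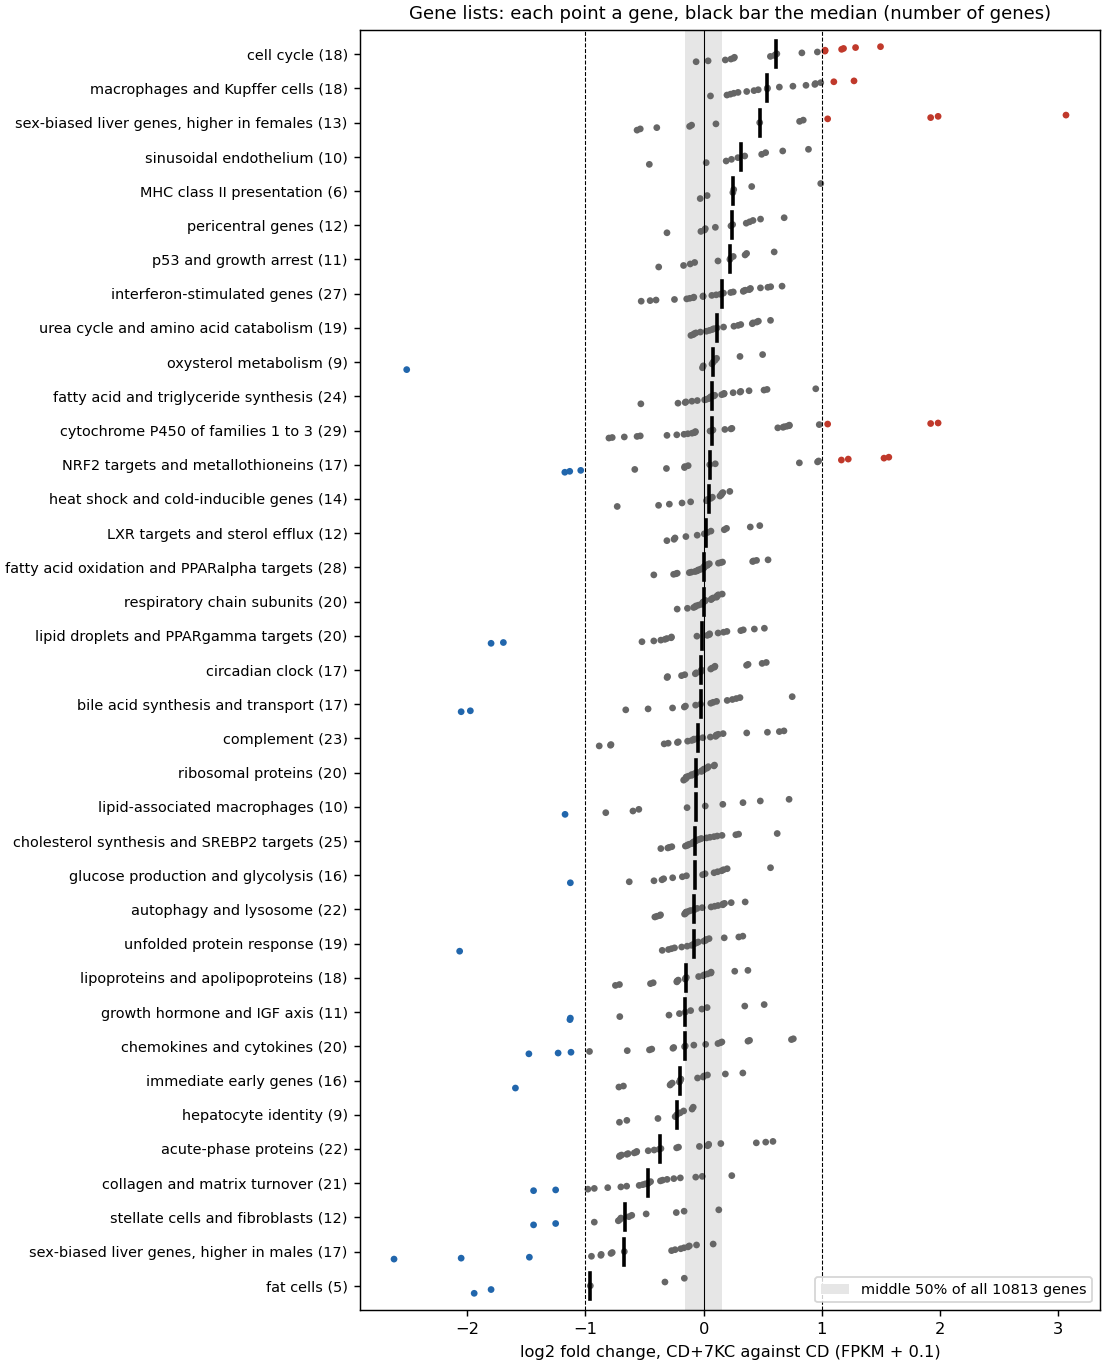
Log2 fold changes of CD+7KC against CD (horizontal axis) of the members of the 37 gene lists with at least 5 expressed members, each point a gene, with red above 1, blue below -1 and a black bar at the list's median. The grey band holds the middle 50% of all 10813 genes (-0.16 to 0.16), and the medians run from 0.61 for the cell cycle list to -0.96 for the fat cell list.

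The expressed macrophage and Kupffer cell markers were higher in CD+7KC. All 18 expressed members of the list were higher, 2 were above 1 and the median was 0.54. The other 2 listed genes, Cx3cr1 and Ccr2, were under 1 FPKM in both libraries and lower in CD+7KC. The median of all 20 was 0.50, and their summed level was 370 FPKM in CD and 529 in CD+7KC. Cd163, a scavenger receptor of resident macrophages, rose from 1.14 to 2.91 (1.27), and Cd5l, a Kupffer cell protein that also circulates in plasma, rose from 30.9 to 66.3 (1.1). Other genes typical of Kupffer cells were close behind, with Clec4f at 20.9 and 40.2 (0.94), Vsig4, a complement receptor, at 13.5 and 26.2 (0.95) and Timd4, a receptor for dying cells, at 1.20 and 2.48 (0.99). Marco, a scavenger receptor of Kupffer cells, was 1.02 and 1.27 (0.29). Among markers shared by macrophages in general, Adgre1, which encodes F4/80, was 2.92 and 5.41 (0.87) and Csf1r, the receptor of the growth factor CSF1, was 7.68 and 11.2 (0.54). The smallest differences were those of Lyz2, lysozyme, at 65.9 and 77.2 (0.23), Ctss, a cathepsin, at 35.5 and 40.8 (0.20), and Mpeg1, a pore-forming protein of phagocytes, at 19.6 and 20.4 (0.06). Of the 14 members with a counting interval 10 had it above 0. In bulk tissue, more cells of a type and more RNA per cell cannot be told apart.

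The same macrophage genes were higher with 7KC on the Western diet as well, where all 18 were higher, 6 were above 1 and the median was 0.91. The summed level of all 20 listed genes was 627 and 1162 FPKM there. Outside the list, and named after the values were seen, Folr2 and Fcna, which are expressed by resident liver macrophages, rose from 4.37 to 11.7 (1.40) and from 11.4 to 26.8 (1.22) on the control diet, and were 8.81 and 18.4 and 13.7 and 28.1 in the WD pair. MHC class II genes, which antigen-presenting cells use, had 5 of 6 members higher and a median of 0.25, with H2-Aa at 45.8 and 60.7 (0.41) and H2-Ab1 at 38.9 and 38.1 (-0.03), so their change was uneven.

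The markers of lipid-associated macrophages, a state described in fatty liver, did not follow the Kupffer cell genes. Of these 10 genes 5 were higher and 5 lower, and the median was -0.06. Gpnmb, a glycoprotein of lipid-laden macrophages, was 2.25 in CD and 3.77 in CD+7KC (0.72), and Trem2, the lipid-sensing receptor of this state, was 2.92 and 2.64 (-0.14). Spp1, osteopontin, which is made by these macrophages and by bile duct cells, fell from 98.7 to 43.7 (-1.17), and Lgals3, a galectin, was 28.6 and 16.1 (-0.83). On the Western diet Spp1 was 124 and 183 and Lgals3 was 67.9 and 84.3, and 9 of the 10 genes were higher.

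Sinusoidal endothelial genes were higher in 9 of 10 cases with a median of 0.32, and none passed the threshold. Clec4g, a lectin of these cells, was 26.3 FPKM in CD and 48.7 in CD+7KC (0.89), and the scavenger receptors Stab1 and Stab2 were 3.02 and 4.87 (0.67) and 3.12 and 4.53 (0.53). Lyve1, the hyaluronan receptor, was the exception at 9.82 and 7.11 (-0.46). The summed level was 86.7 in CD and 117 in CD+7KC, against 65.4 and 176 in the WD pair, where the median was 1.52. Wnt2, a signalling protein that endothelial cells of the central vein and sinusoids secrete, rose from 0.238 to 1.51 (2.26), and it was 0.387 in WD and 2.23 in WD+7KC (2.26).

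Genes of stellate cells and fibroblasts showed the opposite direction on the control diet. Of the 12 members, 11 were lower in CD+7KC, 2 fell past the threshold, and the median was -0.67, with a summed level of 218 FPKM in CD and 167 in CD+7KC. Col1a1, a chain of type I collagen, fell from 8.23 to 3.40 (-1.25, counting interval -1.51 to -1.04), and Timp1, an inhibitor of matrix proteases, fell from 4.14 to 1.46 (-1.44). Col3a1 was 20.3 and 12.5 (-0.70), Acta2, the smooth muscle actin of activated stellate cells, was 3.18 and 1.91 (-0.71), and Col1a2 was 10.1 and 5.25 (-0.93). Des, the intermediate filament desmin, was 1.68 and 0.980 (-0.72), whereas Reln was 3.42 and 3.04 (-0.17) and Lrat, which stores vitamin A, was the 1 member that was higher, at 4.46 and 4.88 (0.13). The overlapping list of collagen and matrix turnover had 1 of 21 genes higher, Mmp19 at 17.9 and 21.2 (0.24), 20 lower and a median of -0.47, and Fn1, fibronectin, was 114 and 82.3 (-0.46). In the WD pair the medians of these lists were both 0.07, and Col1a1 was 7.86 and 9.52.

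Some further falls were at readable levels. Sprr1a, a small proline-rich protein, fell from 66.3 to 17.1 FPKM (-1.95), and Tnfrsf12a, the receptor of the cytokine TWEAK, fell from 42.4 to 17.3 (-1.29). S100a6, a calcium binding protein, fell from 8.33 to 2.47 (-1.71), Anxa1, an annexin of the inflammatory response, fell from 12.5 to 5.70 (-1.12), and Egfr, the epidermal growth factor receptor, fell from 19.5 to 5.76 (-1.74). These last 3 genes were named after their values were seen. Of the 5, Sprr1a, Tnfrsf12a and S100a6 were higher in WD+7KC than in WD, and Anxa1 was 8.88 and 7.94 there, and Egfr 11 and 9.29.

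Markers of other cells that a liver sample may hold were low or few. Of the neutrophil genes 3 were expressed, and the summed level of all 9 listed was 22.5 FPKM in CD and 19.8 in CD+7KC (S100a8 11.8 and 10.3). The T and NK cell list had only Ccl5, at 2.24 and 1.40, above the limit, and Cd3e was 0.0738 and 0.221. B cell genes were Cd74, which other antigen-presenting cells also express, at 77.4 and 91.9, and Cd79a and Cd79b, components of the B cell receptor, at 0.648 and 1.45 (1.05) and 0.366 and 1.28 (1.56). Cd79a and Cd79b reached 1 FPKM only in CD+7KC, and the counting interval of Cd79a was -0.05 to 2.46. In the WD pair their log2 fold changes were -0.47 and 0.58. Of the 7 B cell genes above 0 in CD or CD+7KC, 5 were higher and 2 lower. All 4 expressed bile duct genes were lower, Spp1 among them, with Krt19 at 1.09 and 0.774. Of 11 pancreas genes 9 were listed at 0 in both libraries and the 1 expressed member was Cela1 at 8.07 and 5.73. Erythroid genes were Alas2 at 86.5 and 81.3 and Hba-a1 at 89.8 and 54.5 (-0.72). The part of these cells in the other differences was not tested.

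The fat cell list needs its members named, since fat tissue may attach to a liver sample. All 5 expressed members were lower, with a median of -0.96. The summed level of the 8 listed genes was 3774 in CD and 3227 in CD+7KC, and it came mainly from Car3 (3466 and 3096), a carbonic anhydrase that liver expresses too. Cfd, the protease adipsin, fell from 220 to 63.2 (-1.80) and Retn, resistin, fell from 1.21 to 0.241 (-1.94). Adig, another fat cell gene of the list, was expressed and lower on both diets (-0.96, and -1.03 in the WD pair). Other defining markers of fat cells were at or near 0, with Adipoq at 0.0885 and 0.0882 and Plin1 and Lep listed at 0 in both libraries. Cfd was also lower with 7KC on the Western diet, at 1.47 and 0.115 (-2.87), at levels far under those of CD. Cidea and Fabp4, droplet and fatty acid binding genes that fatty livers express, were 143 and 99.5 (-0.52) and 83.5 and 66.5 (-0.33).

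Proliferation genes were higher at low levels of expression. Of the 18 expressed cell cycle genes 17 were higher in CD+7KC, 6 were above 1 against 1.57% of all genes, and the median was 0.61. The expression limit admits genes through the library where they are high, and 5 of the 18 reached it in 1 library only. Mki67, Ccnb1, Mcm5 and Top2a reached it only in CD+7KC, so the limit shaped the count above 1. In the lowest bin by mean level, 116 of 2704 genes were above 1. The median of the members at 1 FPKM or more in both libraries was 0.57. Mki67, the proliferation marker Ki-67, rose from 0.431 to 1.40 FPKM (1.5). Cdc20, an activator of the anaphase-promoting complex, rose from 1.61 to 4.07 (1.29), Ccnb1, a mitotic cyclin, rose from 0.774 to 1.88 (1.18), and Mcm5, a subunit of the replicative helicase, rose from 0.508 to 1.27 (1.17). Birc5 and Top2a, which act in chromosome segregation, rose from 2.39 to 4.97 (1.03) and from 0.506 to 1.14 (1.03). Pcna, the replication clamp, was 28.5 and 29.3 (0.04), and Ccnd1, the cyclin that responds to growth factors, was 6.87 and 6.57 (-0.06). Among the 14 members with a counting interval it lay above 0 for 10 and below 0 for 0. In the WD pair 17 of the 18 were higher as well, with a median of 0.55 and Mki67 at 0.747 and 1.59.

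Cdkn3, a phosphatase of cyclin-dependent kinases, was 0.641 in CD and 3.52 in CD+7KC (2.29), and Plk1, a mitotic kinase named after its values were seen, was 0.227 and 1.09 (1.86). Arhgef39 was 0.256 and 1.79 (2.41). Cdkn3, Plk1 and Arhgef39 reached 1 FPKM in CD+7KC but not in CD, so the expression limit admitted them through CD+7KC. Cdkn3 and Arhgef39 were named for being among the largest rises and could not have pointed the other way. In the WD pair Plk1 was 0.422 and 1.44 (1.56), whereas Cdkn3 was 2.98 and 2.18 and Arhgef39 was 0.522 and 0.521. In whole liver such levels correspond to few reads, about 4.98 in CD and 23.9 in CD+7KC for Plk1.

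Mitotic genes are known for promoters that carry CCAAT boxes and a cell cycle homology region. The members of the cell cycle list that rose furthest are shown with these letters, and Mcm5 among them is a replication gene and not a mitotic one. The 250 bases before the start site were taken from RefSeq (GRCm38.p6, written 5′ to 3′ on the strand of the gene), with CCAAT and TTTGAA in capitals, or their reverse complements where the match lies on the other strand. The windows are Mki67 at chr7:135716380-135716629 (minus strand), Cdc20 at chr4:118437344-118437593 (minus strand), Ccnb1 at chr13:100786487-100786736 (minus strand) and Mcm5 at chr8:75109259-75109508 (plus strand).
Mki67: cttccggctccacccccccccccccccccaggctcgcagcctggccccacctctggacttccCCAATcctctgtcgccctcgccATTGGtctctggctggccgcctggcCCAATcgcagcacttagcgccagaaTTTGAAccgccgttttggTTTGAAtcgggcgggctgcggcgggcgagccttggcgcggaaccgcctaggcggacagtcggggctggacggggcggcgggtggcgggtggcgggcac
Cdc20: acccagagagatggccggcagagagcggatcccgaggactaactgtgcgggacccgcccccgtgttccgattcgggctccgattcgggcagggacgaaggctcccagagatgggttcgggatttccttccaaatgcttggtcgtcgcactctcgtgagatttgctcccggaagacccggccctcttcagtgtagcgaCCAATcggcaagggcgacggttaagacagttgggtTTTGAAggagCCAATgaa
Ccnb1: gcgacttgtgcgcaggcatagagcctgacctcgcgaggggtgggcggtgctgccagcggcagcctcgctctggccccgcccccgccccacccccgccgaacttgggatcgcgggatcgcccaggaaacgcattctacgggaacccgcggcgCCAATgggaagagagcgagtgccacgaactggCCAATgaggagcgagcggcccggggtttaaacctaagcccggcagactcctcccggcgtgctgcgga
Mcm5: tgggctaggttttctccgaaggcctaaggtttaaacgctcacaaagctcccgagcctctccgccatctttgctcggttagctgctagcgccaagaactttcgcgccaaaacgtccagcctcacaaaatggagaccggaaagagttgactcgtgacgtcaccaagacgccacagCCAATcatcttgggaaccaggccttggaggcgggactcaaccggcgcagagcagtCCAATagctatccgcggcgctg
Of these, Mki67 and Cdc20 held both motifs, and Ccnb1 and Mcm5 held CCAAT alone. A window was found for 15 of the 18 expressed cell cycle genes, and CCAAT was present on either strand in 13 of them (86.7%) against 33.8% of all 32851 windows in the table. TTTGAA was present in 7 of the 15 (46.7%) against 16% of all windows. The motifs do not overlap each other in letters, and a match describes the sequence and not a site of binding.

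Acute-phase genes, which hepatocytes express under inflammatory cytokines, were lower in 15 of 22 cases with a median of -0.37 and none past the threshold. The 3 fibrinogen chains were lower by similar amounts, with Fga at 1110 and 750 FPKM (-0.57), Fgb at 2273 and 1449 (-0.65) and Fgg at 2104 and 1351 (-0.64). Saa1 and Saa2, serum amyloid A genes, were 356 and 257 (-0.47) and 192 and 129 (-0.57), whereas Saa3, which macrophages also make, was 12.9 and 17.6 (0.45). The orosomucoid genes went the other way, with Orm2 at 134 and 193 (0.53) and Orm3 at 74.9 and 113 (0.59), so the list was not uniform. Lcn2, lipocalin-2, was 52.3 and 57.8 (0.15).

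Of 16 clade A serpins, a family grouped after the values were seen, 3 were higher, 13 were lower and the median was -0.36. Serpina1e stood apart from its close copies Serpina1a (591 and 518), Serpina1b (3523 and 3520), Serpina1c (1139 and 871) and Serpina1d (1225 and 1125). The assignment of reads among these near-identical genes is uncertain. Complement genes had 10 of 23 higher, 13 lower and a median of -0.05, where the C1q genes of macrophages were higher (C1qc 36.5 and 57.0, 0.64) and the terminal components C6 (22.3 and 12.9), C8a (108 and 62.4) and C8b (28.5 and 15.4) had log2 fold changes of -0.78, -0.79 and -0.88. The terminal components did not share a direction, since C9 was 288 and 299 (0.06), C8g was 391 and 421 (0.11) and Hc, which encodes C5, was 96.0 and 82.7 (-0.21).

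Chemokine and cytokine genes had 8 of 20 higher, 12 lower, 0 above 1 and 3 below -1, and a median of -0.16. Ccl2, the monocyte chemoattractant, was 14.5 in CD and 7.40 in CD+7KC (-0.97), and Cxcl2, which attracts neutrophils, fell from 1.35 to 0.516 (-1.23). Ccl4 fell from 2.41 to 0.799 (-1.48), and Cxcl14 from 2.91 to 1.28 (-1.12). Il1a was 1.59 and 2.76 (0.76), and Tnf was under the expression limit in both libraries (0.324 and 0.129). In the WD pair the median of the list was 0.76, with Ccl2 at 6.52 and 11, so that CD+7KC and WD were similar for this gene and CD was highest.

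Interferon-stimulated genes had 17 of 27 higher and 10 lower with a median of 0.15. Gbp3, a guanylate binding protein, was 1.25 and 2.04 (0.66), Usp18, which restrains interferon signalling, was 2.78 and 4.10 (0.54), and Isg15 was 8.43 and 8.40 (-0.0048). Immediate early genes had 4 of 16 higher and 12 lower with a median of -0.20, and Ier3 fell from 2.36 to 0.717 (-1.59) while Fos was 6.77 and 7.71 (0.18). Growth arrest genes of the p53 pathway had 7 of 11 higher and a median of 0.22, with Cdkn1a, the kinase inhibitor p21, at 15.4 and 18 (0.22).

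Stress and housekeeping lists were close to 0. The unfolded protein response had 7 of 19 higher, 12 lower and a median of -0.08, with the chaperone Hspa5 at 256 and 248 (-0.05). Its 1 gene past the threshold was Chac1, a glutathione-degrading enzyme induced by the ATF4 pathway, which fell from 8.91 to 2.05 (-2.06). Heat shock and cold-inducible genes had 9 of 14 higher (median 0.05), clock genes 8 of 17 (median -0.02), autophagy and lysosome genes 8 of 22 (median -0.08), respiratory chain subunits 10 of 20 (median 0.0036) and ribosomal proteins 7 of 20 (median -0.06). Map1lc3b, which marks autophagosomes, was 97.3 and 87.8 (-0.15), and Sqstm1, the cargo receptor p62, was 373 and 280 (-0.41). Over all 43 lists, 6 medians were above 0.25, 9 were below -0.25 and 28 lay between.

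Many of the largest fold changes belonged to genes near the limit of detection. Of the 170 rises, 114 were genes under 1 FPKM in CD and 22 were listed at 0 there. Of the 117 falls, 68 were under 1 FPKM in CD+7KC and 10 were listed at 0. Micro RNAs, small nucleolar RNAs and other transcripts under 200 bases accounted for 17 rises and 9 falls out of 34 such genes, and since FPKM of a transcript shorter than a fragment is not a measured level, they are not named. Among protein-coding genes, BC028528, Gm1673 and Rbp7, a retinol binding protein, were listed at 0 in CD and were 3.78, 1.23 and 1.17 in CD+7KC, and Rpl26, a ribosomal protein gene with many processed copies, was 7.35 in CD and listed at 0 in the other 3 libraries. Pet117 (0.0182 and 2.23) and Moap1 (1.22 and 0.000354) were estimated at under 1 read in 1 library, so no fold is given.

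Genes with low but readable changes completed the largest rises and falls. Tmprss4, a membrane protease, rose from 0.396 to 3.29 (2.77). Chil3, a chitinase-like protein of alternatively activated macrophages, fell from 1.36 to 0.136 (-2.63), and Clec4d, a lectin of myeloid cells, fell from 1.05 to 0.160 (-2.14). Ankrd37, a target of hypoxia signalling, fell from 2.86 to 0.389 (-2.60), Ivl, involucrin, fell from 1.21 to 0.158 (-2.35), Smim24 fell from 1.73 to 0.246 (-2.40) and Mup8 fell from 1.05 to 0.116 (-2.41). A counting interval was made for 4 of these 7 genes (Chil3, Ankrd37, Ivl and Smim24), and it was wide, for example -5.32 to -1.22 for Ankrd37.

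The Western diet libraries share no library with the control diet pair and so give the same contrast in other animals. For all 10813 genes, 2.66% were above 1 and 0.842% below -1 in WD+7KC against WD, and 45.1% were higher. The split of that pair depends on its scaling, since rescaling to equal sums turned 288 above 1 and 91 below -1 into 483 and 55, with 75.8% higher. Of the 170 genes that rose on the control diet, 38 (22.4%) were also above 1 on the Western diet, 13 (7.65%) were below -1 and 102 were higher against 52 lower. Of the 117 genes that fell, 13 (11.1%) were also below -1, 14 were above 1 and 60 were higher against 48 lower. Low genes pass the threshold often in either direction, and so the well expressed ones were counted separately. With a mean of at least 5 FPKM, 19 protein-coding genes rose on the control diet, of which 5 were above 1 and 0 below -1 on the Western diet, where 0.620% of the 6449 genes at that level were above 1. Those 5 were Cd5l, Folr2, Fcna, Dnase1l3, a nuclease of macrophages and endothelium, and Scd2, a desaturase. Of the 24 that fell, 4 were also below -1, namely Cfd, Cyp8b1, Serpina1e and Mup14, and 1, Sprr1a, was above 1, where 0.372% were below -1. These counts at the higher level were chosen after the data were seen.

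**Figure D4:**
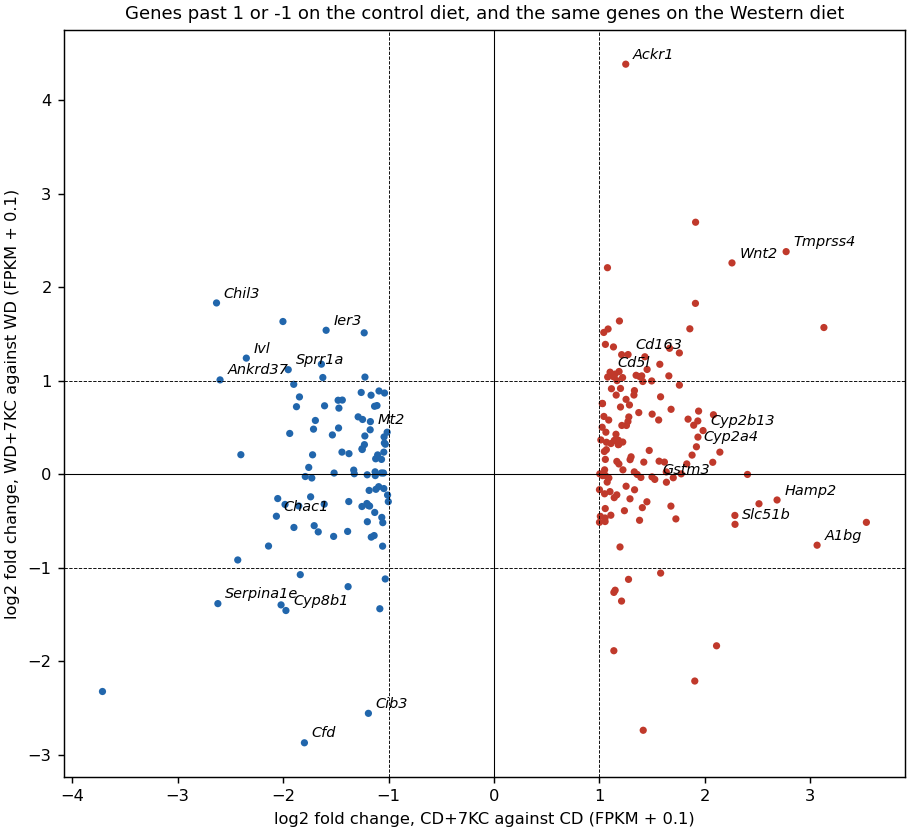
Log2 fold change of WD+7KC against WD (vertical axis) against that of CD+7KC against CD (horizontal axis) for the 242 genes past 1 or -1 on the control diet that were above 0 in all 4 libraries, 142 with a rise (red) and 100 with a fall (blue), 1 library per group. Points in the upper right and lower left corners, such as Tmprss4, Wnt2, Cyp8b1 and Cfd, passed the threshold in the same direction on both diets, while most points lie between the horizontal lines at 1 and -1.

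The strongest shared rises beyond those named were Ms4a8a, a membrane protein of macrophage subsets, at 0.311 and 1.45 on the control diet (1.91) and 0.482 and 1.97 on the Western diet (1.83), and Krt20, a keratin, at 0.526 and 1.89 (1.67) and 0.612 and 1.71 (1.35). Ackr1, a chemokine receptor of venous endothelium, rose from 0.381 to 1.05 (1.25) and from 0.111 to 4.31 (4.39). On the control diet its counting interval was -0.30 to 3.56 and so included 0. Ms4a8a, Krt20 and Ackr1 reached 1 FPKM in CD+7KC but not in CD. Shared falls were Cib3 at 2.48 and 1.03 (-1.19) and 15.9 and 2.62 (-2.56), Mup14 at 24.4 and 11.4 (-1.08) and 2.64 and 0.913 (-1.44), and Agbl3, a carboxypeptidase, at 3.74 and 1.78 (-1.03) and 2.92 and 1.29 (-1.12). The control diet counting interval of Cib3 was -3.46 to 0.47 and included 0, while that of Mup14 was -1.47 to -0.73. By contrast, Hamp2, Gstm1, Gstm3, Gsta1 and Cyp2b9 had log2 fold changes of -0.27, -0.22, -0.05, 0.05 and -0.21 on the Western diet. Under other scalings of the WD pair these values reached at most -0.06, -0.0024, 0.16, 0.26 and 0.009. Other well expressed rises of the control diet were higher on the Western diet too, without passing the threshold. They were Ugt1a9 (0.85), Cyp2b13 (0.47), Cyp2a4 (0.30) and Cbr3 (0.14). Whether any gene responded differently to 7KC on the 2 diets was not tested, since each group had 1 library.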

How the data were processed

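Liver RNA of 4 groups of ob/ob mice (1 library each) was sequenced by the authors as single-end reads from a stranded mRNA preparation. The deposited values are FPKM per gene symbol, made by the authors with the tools the submitters' processing notes list (TopHat2 2.0.13, Bowtie2 2.2.3, SAMtools 0.1.19 and Cufflinks 2.2.1) on mm10, and the gene annotation is not given in the sources used here. FPKM depends on the modelled transcript length and on the most abundant transcripts of a library, and reads of near-identical genes are divided by the estimator.

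Fold changes were log2((FPKM + 0.1)/(FPKM + 0.1)), for genes with at least 1 FPKM in CD or CD+7KC, and a value past 1 or -1 was counted as a rise or a fall. No test across genes was made because a group had 1 library. Fragments per library were estimated from the spacing of low FPKM values of genes with 1 RefSeq transcript length (14983 genes of at least 700 bases, with 200 bases taken off the length). From 72.7% to 73.9% of the low values then lay within 0.1 of a whole read, so read numbers and the exact (Clopper-Pearson) 95% intervals of a ratio are approximate and cover counting error only. These steps were tested on simulated data. Symbols were matched to GENCODE vM21 (GRCm38), by symbol for 23270 and by synonym for 664 of 24346.

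Named genes were, among protein-coding genes with a transcript of at least 200 bases, the 12 largest rises and 12 largest falls; the 8 largest each way with a mean of at least 20 FPKM; the 6 each way with the largest smaller change over both diets; and of each of 43 lists the first 2 members and its extremes. Other members of a list are named to describe it, and a few genes that the rule names are not reported here. The members and lists were chosen with earlier results of these data known. Promoter windows are from RefSeq (GRCm38.p6), cut to 250 bases. Scaling, pseudocount, expression limit and threshold were varied. Python 3.11.15, numpy 2.4.6, pandas 2.3.3, scipy 1.17.1 and matplotlib 3.10.9 were used.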

Additional observations from a re-analysis of the deposited data

Results flagged for a closer look

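Among the genes named above, 6 were past the threshold in opposite directions on the 2 diets and above 0 in all 4 libraries. Chil3 had a log2 fold change of -2.63 for CD+7KC against CD and 1.83 for WD+7KC against WD. Ankrd37 had -2.60 and 1.01, Ivl had -2.35 and 1.24, Ier3 had -1.59 and 1.54, and Cxcl2 had -1.23 and 1.51. Sprr1a, the only one of them at a high level, had -1.95 and 1.12, from 66.3 to 17.1 FPKM on the control diet and from 80.2 to 174 on the Western diet. With 1 library in each group, these differences between the diets were not tested. On the Western diet the counting intervals of Ankrd37 (-0.15 to 2.63) and Ivl (-0.25 to 4.10) included 0. Those of Chil3 (0.96 to 3.10) and Sprr1a (0.97 to 1.28) lay above 0. Over all genes past the threshold on the control diet, 27 were past it in the other direction on the Western diet, 19 of them above 0 in all 4 libraries.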

How the results depend on the processing

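The main counts were 170 genes above 1 and 117 below -1. They became 65 and 48 under the pseudocount of 1, 56 and 49 where both libraries had to reach 1 FPKM, 603 and 456 without an expression limit, 49 and 40 with at least 5 FPKM in either library, 532 and 372 at a 1.5-fold threshold, 39 and 24 at a 4-fold threshold, and 19 and 24 among protein-coding genes averaging 5 FPKM or more, a setting chosen after seeing the data. The share of rises also above 1 on the Western diet (22.4%) became 10.8% with a pseudocount of 1 and 34.4% at the 1.5-fold threshold, and the share of falls also below -1 there (11.1%) became 17.5% with at least 5 FPKM in either library. The cause was not tested. Other scalings moved the control diet comparison by at most 0.04 on the log2 scale, and the median of all genes, -0.0048, was then 0.0043 to 0.033. In the Western diet comparison they moved values by 0.22 (equal sums) and 0.18 (equal sums without the top 20 genes). Of 54 named genes past the threshold, 0 reversed and 18 came under it in at least 1 of the 14 alternatives, 17 of them with a pseudocount of 1. The medians of 7 of the 43 lists changed sign in at least 1 alternative, and of the 15 with a median past 0.25 either way only that of T and NK cells, with 1 member, did. Depth limits the genes near 1 FPKM. No paired analysis was possible because each group had 1 library, and for the same reason no replicate could be left out.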
